A study of Mus musculus with 14 samples.

Results

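Lipolysis and the coat of the lipid droplet were followed through 10 genes, Pnpla2, Lipe, Mgll, Abhd5, G0s2, Plin1, Plin4, Cidec, Cidea and Adrb3, in epididymal white adipose tissue (eWAT) of mice on a control diet or a Western diet (WD). The genes were taken by symbol from the 23282 genes of the deposited count table, and all 10 were found once. The study fed male wild type C57BL/6J mice from 4 weeks of age for 20 weeks and asked which inflammatory signals eWAT gives under a WD. QuantSeq 3′-mRNA sequencing was done on 14 libraries. The labels give a batch for each library: controls 1 to 4 and WD replicates 1 to 5 belong to batch 1, and controls 5 to 9 to batch 2. All groups share strain, genotype, sex, tissue and time on diet, and the WD (D12079B) differed from the standard diet in being richer in fat with added cholesterol. Because no WD library is in batch 2, diet and batch cannot be told apart when the WD group is set against batch 2.

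Fat cells store triglyceride in a single large droplet and release it by lipolysis. Catecholamines act on the beta-3 adrenergic receptor (Adrb3), cAMP rises, and protein kinase A phosphorylates perilipin 1 (Plin1) and hormone-sensitive lipase (Lipe). Perilipin 1 then frees the co-activator Abhd5, which switches on adipose triglyceride lipase (Pnpla2), and triglyceride is cleaved in turn by Pnpla2, Lipe and monoacylglycerol lipase (Mgll). G0s2 inhibits Pnpla2, perilipin 4 (Plin4) coats droplets, and the CIDE proteins Cidec and Cidea let small droplets merge into larger ones.

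Each library held between 10278970 and 13712254 counts, and normalised values are given as CPM, counts scaled to a common library size after TMM correction. QuantSeq counts come from the 3′ end of each transcript, so CPM levels of different genes were compared without division by length. Between 10903 and 13780 genes had a count in a library, except in control 4, which had 7999. All 9 adipocyte markers tested, among them Adipoq and Pparg, were detected in every group. Their summed level was 3101 CPM in control 1, 10509 to 19980 CPM in controls 2 to 4, 8469 to 13439 CPM in the WD group and 24904 to 37161 CPM in batch 2. Control 1 carried 189633 CPM of 19 epididymis genes, which summed to at most 56.9 CPM in any other library, so results are given with and without it. Control 4 held 2348 CPM of 9 macrophage markers, against 359 to 869 CPM in controls 1 to 3, 2144 to 3584 CPM in the WD group and 367 to 826 CPM in batch 2. The strand used in counting is not given in the sources used here, and exons of Lipe, Mgll, Abhd5, Plin4 and Adrb3 overlap a gene of the opposite strand (4732471J01Rik, Gm26588, A730085K08Rik, Hdgfl2 and Gm45470), so their values may include its reads. In such bulk tissue, fewer fat cells and less of an RNA per fat cell cannot be told apart.

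The promoters of Plin1, Cidec and Abhd5 are shown because these 3 genes, a coat protein, a fusion protein and a lipase co-activator, recur in the results, and because their windows hold letters bound by factors of fat cell genes. The RefSeq promoter table (GRCm38.p6) matched 8 of the 10 genes with 11 windows, and the 250 bases before each start are printed 5′ to 3′ on the gene's strand. Capitals mark the C/EBP core TTNNGCAA in Plin1 and Cidec and the nuclear receptor half-site AGGTCA in Abhd5, on either strand.
Plin1, chr7:79732777-79733026, minus strand: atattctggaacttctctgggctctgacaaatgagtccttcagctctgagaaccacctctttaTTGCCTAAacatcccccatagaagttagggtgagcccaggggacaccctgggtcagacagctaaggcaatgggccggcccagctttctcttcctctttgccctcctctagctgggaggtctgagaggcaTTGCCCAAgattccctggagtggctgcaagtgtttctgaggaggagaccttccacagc
Cidec, chr6:113434765-113435014, minus strand, the downstream of 2 listed starts: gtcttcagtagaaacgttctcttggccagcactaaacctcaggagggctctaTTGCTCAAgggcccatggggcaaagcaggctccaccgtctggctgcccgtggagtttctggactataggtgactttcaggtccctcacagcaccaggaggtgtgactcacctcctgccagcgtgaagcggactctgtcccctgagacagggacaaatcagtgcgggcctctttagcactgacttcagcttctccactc
Abhd5, chr9:122351366-122351615, plus strand: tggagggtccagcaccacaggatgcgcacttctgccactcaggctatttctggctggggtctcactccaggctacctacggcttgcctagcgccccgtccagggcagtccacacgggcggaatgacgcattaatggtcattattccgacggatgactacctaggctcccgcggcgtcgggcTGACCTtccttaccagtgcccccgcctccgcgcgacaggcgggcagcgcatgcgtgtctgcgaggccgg
The C/EBP core was present at 2 places in Plin1 and once in Cidec, and 9.56% of the 32851 mouse windows searched hold it. AGGTCA, found in 14% of windows, matched Abhd5 alone among the 8 genes. A direct repeat of AGGTCA with 1 base between, the element of PPAR gamma, was in 0.0335% of windows and in none of the 11. The cAMP response element TGACGTCA (1.55% of windows) matched none of the 11 either, and the E-box CACGTG (6.02%) matched 1 window each of Mgll and Lipe. These matches are a description of letters only, and binding was not measured.

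The 10 genes spanned a wide range of levels, and their order differed between the groups. In batch 2, Cidec was highest with 5545 ± 445 CPM (SD, n = 5), followed by Pnpla2 with 2375 ± 101, Plin4 with 2112 ± 362, Mgll with 1941 ± 329 and Lipe with 1651 ± 197 CPM. The ranges of Plin4, Mgll and Lipe overlapped, and Pnpla2 overlapped Plin4 and Mgll but lay above Lipe in every library. In the same batch 2 libraries Plin1 followed with 682 ± 71.7 and Adrb3 with 532 ± 126 CPM, and these ranges overlapped too. Abhd5 (190 ± 44.0) and G0s2 (162 ± 61.0 CPM) were lower, and Cidea was lowest with 8.86 ± 2.79 CPM, on 57 to 161 counts. In the WD group Cidec (3067 ± 797) was followed by Mgll (1769 ± 883), Pnpla2 (1283 ± 160), Lipe (972 ± 162) and Plin4 (629 ± 203 CPM), so the mean of Plin4 stood behind all 3 lipases there. The same held in the batch 1 controls, with Plin4 at 686 ± 513, Lipe at 737 ± 411, Mgll at 1305 ± 739 and Pnpla2 at 1464 ± 1005 CPM. Cidec made up 31.1% to 40.7% of the summed CPM of the 10 genes in every library, control 1 included, although that sum ran from 1534 CPM in control 1 to 15919 CPM in control 9.

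**Figure D1:**
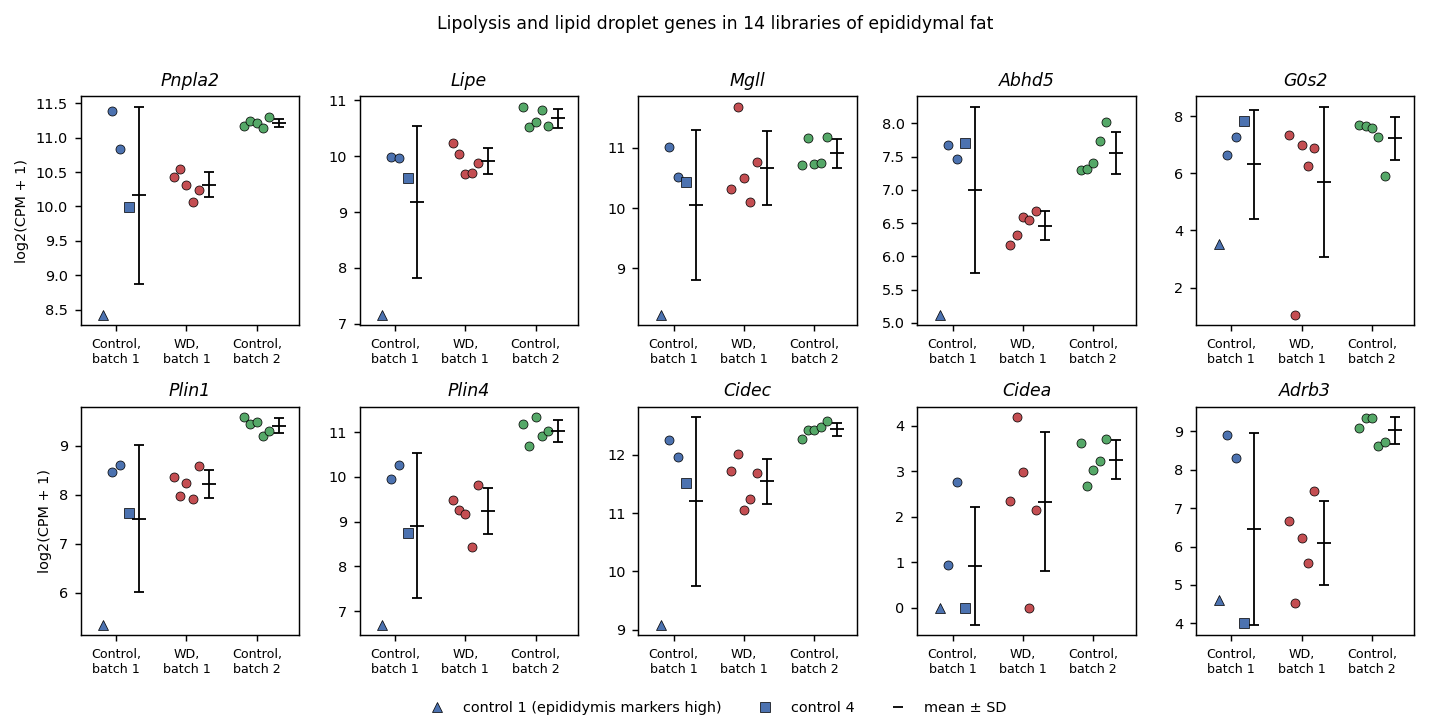
Normalised level of each gene, log2(CPM + 1), in every library, by diet and batch; points are libraries, the triangle is control 1, the square is control 4 and bars are mean ± SD over 4, 5 and 5 libraries. Control 1 lies lowest of all 14 libraries for Pnpla2, Lipe, Mgll, Abhd5, Plin1, Plin4 and Cidec, and Abhd5 of the WD group lies below all other controls.

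Pnpla2, which makes the first cut in triglyceride (chromosome 7, 141455188 to 141460743, plus strand, mm10), was at 343, 2667, 1827 and 1021 CPM in controls 1 to 4. The WD libraries held 1378, 1491, 1268, 1074 and 1203 CPM. Batch 2 held 2299, 2410, 2379, 2265 and 2521 CPM. Thus the WD libraries lay between controls 1 and 4 on one side and controls 2 and 3 on the other, and all of them lay below batch 2.

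Abhd5, the co-activator of Pnpla2 (chromosome 9, 122351616 to 122381523, plus strand), showed 33.8, 204, 176 and 209 CPM in controls 1 to 4. In the WD group it was 70.7, 78.6, 95.2, 92.9 and 102 CPM. In batch 2 it was 156, 158, 168, 212 and 258 CPM. These values rest on 313, 2449, 2115 and 2873 raw counts in controls 1 to 4, on 733 to 1286 in the WD group and on 1656 to 2775 in batch 2. All 5 WD libraries lay below 8 of the 9 controls, and control 1 alone lay below them. In control 4 Abhd5 stood at 1.10 times the mean of controls 2 and 3 and G0s2 at 1.79 times, whereas the other 8 members were below it.

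G0s2, the inhibitor of Pnpla2 (chromosome 1, 193272160 to 193273188, minus strand, overlapping Lamb3 on the other strand), was at 10.5, 99.2, 152 and 224 CPM in controls 1 to 4. The WD group held 159, 1.07, 126, 75.0 and 118 CPM, where 1.07 CPM stands for 10 counts in WD replicate 2. Batch 2 held 206, 199, 192, 153 and 59.1 CPM. The groups overlapped, and the spread was set by control 1, WD replicate 2 and control 9, each far from the rest of its group. In WD replicate 2 Pnpla2 was the highest of the 5 WD libraries, and Mgll and Cidea were the highest of all 14.

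Lipe, which cleaves diacylglycerol (chromosome 7, 25379527 to 25395987, minus strand), was at 142, 1019, 1004 and 782 CPM in controls 1 to 4. The WD libraries held 1205, 1056, 825, 828 and 944 CPM, within the range of controls 2 to 4 or just above it. Batch 2 held 1893, 1476, 1573, 1829 and 1484 CPM, above all other libraries.

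Mgll, which completes the breakdown to glycerol (chromosome 6, 88724412 to 88828360, plus strand), stood at 298, 2075, 1467 and 1381 CPM in controls 1 to 4. The WD group held 1270, 3291, 1450, 1096 and 1739 CPM, with WD replicate 2 the highest of all 14 libraries. Batch 2 held 1681, 2286, 1698, 1725 and 2315 CPM. With control 1 left out, the 3 groups overlapped.

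Plin1, the gatekeeper of the adipocyte droplet (chromosome 7, 79721164 to 79732776, minus strand), held 39.5, 354, 388 and 198 CPM in controls 1 to 4 and 328, 251, 304, 240 and 387 CPM in the WD group. Batch 2 held 771, 697, 718, 588 and 634 CPM. No library of batch 1, on either diet, reached the lowest of batch 2.

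Plin4 (chromosome 17, 56100591 to 56109802, minus strand) gave the same order, with 103, 987, 1225 and 427 CPM in controls 1 to 4 and 711, 613, 573, 345 and 901 CPM in the WD group. In batch 2 it was 2323, 1649, 2591, 1927 and 2070 CPM. The WD libraries were below controls 2 and 3 and below batch 2, and 4 of the 5 were above control 4.

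Cidec (chromosome 6, 113424634 to 113435760, minus strand) was at 542, 4897, 3967 and 2921 CPM in controls 1 to 4, at 3355, 4117, 2129, 2424 and 3309 CPM in the WD group, and at 4910, 5465, 5522, 5678 and 6148 CPM in batch 2. Batch 2 was above both groups of batch 1, though control 5 (4910 CPM) only just exceeded control 2 (4897 CPM). The 2 groups of batch 1 overlapped.

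Cidea, a fusion protein best known from brown fat, had 0, 11, 69 and 0 counts in controls 1 to 4 and 58, 161, 93, 0 and 41 counts in the WD group. Batch 2 had 161, 57, 95, 110 and 120 counts. A count of 0 allows up to 0.249 CPM in control 1, 0.243 in control 4 and 0.235 in WD replicate 4, before TMM correction and for counting error only. Groups overlapped for Cidea, and Ucp1, the defining gene of brown fat, was at 0 in all 4 controls of batch 1 and at most 3.32 CPM elsewhere. The 7 brown or beige markers tested, Ucp1 included, summed to 36.1 to 79.8 CPM in the WD group. That sum was 18.2 to 41.5 CPM in batch 1 controls and 19.2 to 43.6 CPM in batch 2. Of the 7, Cox8b alone had no overlap inside batch 1, with 18.6 to 52.8 CPM in the WD group and 2.00 to 13.9 CPM in controls. In batch 2 Cox8b reached 20.9 CPM.

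Adrb3, the receptor at the head of the pathway (chromosome 8, 27225776 to 27229588, minus strand), was at 23.6, 478, 316 and 15.2 CPM in controls 1 to 4. It was at 100, 22.3, 74.2, 46.9 and 174 CPM in the WD group, and at 540, 656, 655, 391 and 418 CPM in batch 2. The raw counts behind them were 218, 5728, 3795 and 209 in controls 1 to 4, with 208 to 2084 for WD libraries and 4191 to 8746 for batch 2. On the log2(CPM + 1) scale Adrb3 ran from 4.02 to 8.90 in the batch 1 controls, from 4.54 to 7.45 in the WD group and from 8.61 to 9.36 in batch 2. All WD libraries were below 7 of the 9 controls and above control 4, and 4 of the 5 were above control 1. In control 4 Adrb3 was 26.2-fold below the mean of controls 2 and 3, whereas Plin4 was 2.59-fold, Pnpla2 2.20-fold and the summed adipocyte markers 1.83-fold below it. In control 1 the detected members were 5.63-fold (Abhd5) to 16.9-fold (Adrb3) below that mean and the adipocyte markers 6.21-fold.

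Within batch 1, where both diets are present, none of the 10 genes passed edgeR's quasi-likelihood test at a false discovery rate (FDR) of 0.05, and none had an unadjusted p under 0.05. The share of all genes called was 0% (0 of 12157 tested, 628 with an unadjusted p under 0.05), and DESeq2 called 238 genes (1.81%) but no member. The log2 fold changes (WD minus control) of the members had a median of -0.07, against 0.03 for all genes, and 6 of 10 were negative. The sign depends on the measure, since differences in mean log2(CPM + 1) were negative for 3 of 10 (Abhd5, G0s2 and Adrb3) and positive for Pnpla2 (0.16), Plin4 (0.32) and Cidec (0.34). The groups overlapped for every member, whereas 0.847% of all genes were lower and 3.03% higher in every WD library. Abhd5 changed by -0.83 (SE 0.43) and Adrb3 by -1.32 (SE 0.86), both with an FDR of 0.9999 by edgeR. Lipe (0.40, SE 0.47), Mgll (0.44, SE 0.52) and Plin1 (0.30, SE 0.49) had estimates above 0, no larger than their errors, as did Cidea (1.92, SE 2.01), which rests on 0, 11, 69 and 0 counts in the controls.

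Leaving out control 1 changed the estimates of batch 1 but no call, and without control 4 no member was called either, beside 0.372% of all genes (0.0465% lower). Without control 1, Abhd5 stood at -1.16 (SE 0.24, edgeR FDR 0.321), with 3 controls at 176 to 209 CPM and 5 WD libraries at 70.7 to 102 CPM, and it was the only member whose groups did not overlap. For comparison, 2.25% of all tested genes were lower in every WD library in that split. An exact two-sided permutation test of log2(CPM + 1) for Abhd5 gave p = 0.413 with control 1 and p = 0.0179 without it, the latter the smallest that 56 splits can give. With controls 1 and 4 both left out, Adrb3 stood at -2.25 (SE 0.52, edgeR FDR 0.0774), Abhd5 at -1.115 (SE 0.27, FDR 0.0912) and Pnpla2 at -0.81 (SE 0.27, FDR 0.260), still short of the threshold, and only 2 controls remained. Pnpla2, Abhd5, Plin4 and Adrb3 were then lower in every WD library, as were 8.49% of all genes tested. For Pnpla2, Plin4 and Adrb3, controls 1 and 4 were the lowest controls of batch 1, so leaving them out raised the control mean by itself. The permutation p of each member was unadjusted, and 10 members were tested in each comparison.

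Against all 9 controls the WD group had lower estimates for 8 of 10 members, with a median log2 fold change of -0.62 against -0.04 for all genes. None of the 10 was called, where 0.530% of 12653 genes were (0.435% higher and 0.0948% lower), and no member had groups without overlap, where 0.213% of all genes were lower and 1.13% higher in every WD library. Adrb3 (-2.23, SE 0.72, edgeR FDR 0.267), Abhd5 (-1.01, SE 0.33, FDR 0.267) and Plin4 (-1.25, SE 0.52, FDR 0.520) had an unadjusted p under 0.05. Calls depended on single control libraries. Without control 1, Abhd5 was called lower (-1.13, SE 0.19, edgeR FDR 0.00399), beside 1.52% of all genes called, 0.529% lower. Without control 4, Adrb3 was called lower (-2.39, SE 0.59, FDR 0.0384), beside 2.29% of all genes called, 0.484% lower. Control 1 was the lowest library for Abhd5 (33.8 CPM) and control 4 for Adrb3 (15.2 CPM), so each omission raised the control mean by itself. With all 9 controls kept, Adrb3 was the 1 member that DESeq2 called (-2.23, SE 0.62, FDR 0.0230), beside 2.11% of all genes called by it, 0.902% lower.

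With controls 1 and 4 both left out, 6 of the 10 genes were lower in the WD group than in the remaining 7 controls, where 4.98% of all genes were called and 1.88% were called lower. These were Adrb3 (-2.58, SE 0.38, edgeR FDR 0.000400), Abhd5 (-1.13, SE 0.19, FDR 0.000962), Plin4 (-1.55, SE 0.26, FDR 0.00116), Pnpla2 (-0.88, SE 0.16, FDR 0.00205), Plin1 (-0.99, SE 0.22, FDR 0.00975) and Cidec (-0.78, SE 0.19, FDR 0.0194). Lipe (-0.61, SE 0.20, FDR 0.0898) did not pass, nor did Mgll (-0.11, SE 0.24), G0s2 (-0.67, SE 0.58) and Cidea (-0.22, SE 0.89). Of those 7 controls, 5 are from batch 2, so this difference mixes diet with batch. Controls 1 and 4 were also the lowest controls for Adrb3, Plin4, Pnpla2, Plin1 and Cidec. Control 4 stood at 15.2, 427, 1021, 198 and 2921 CPM for these genes. Leaving both out raises the control mean by itself, so the calls are no independent support. For Abhd5, control 1 alone was low.

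**Figure D2:**
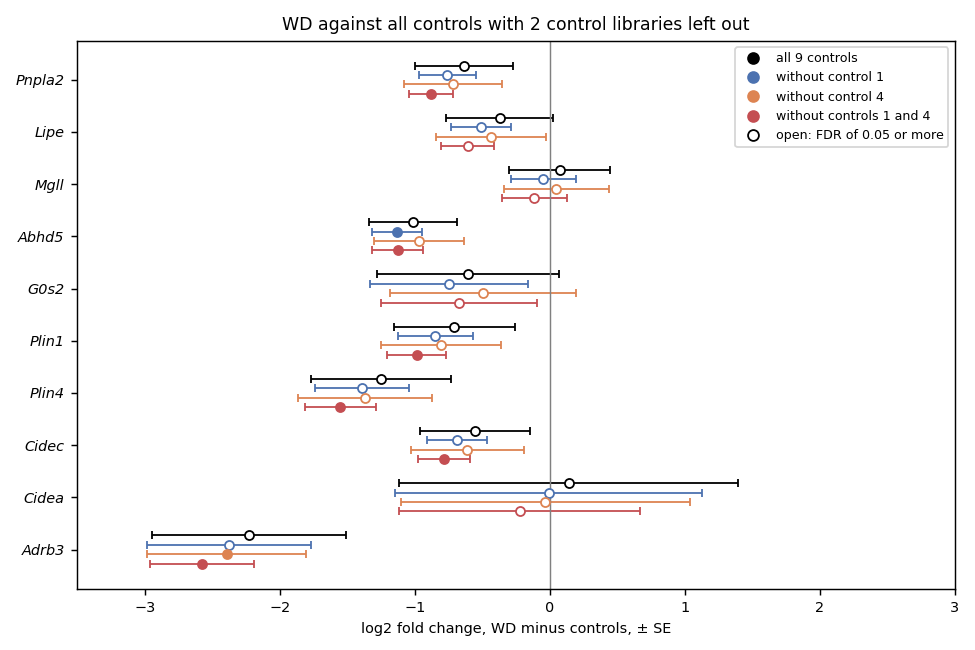
Log2 fold change (WD minus controls) with its SE for each gene, from all 9 controls, without control 1, without control 4 and without both; filled points have an edgeR FDR under 0.05. Filled points are absent with all 9 controls, appear for Abhd5 without control 1 and for Adrb3 without control 4, and number 6 without both.

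Against the batch 2 controls alone, 7 of the 10 genes were lower in the WD group, where 6.40% of 12070 genes were called, 2.48% lower and 3.93% higher. Adrb3 was 6.43-fold lower (log2 -2.685, SE 0.41, edgeR FDR 0.000659), Plin4 3.39-fold (SE 0.23, FDR 0.000206), Plin1 2.28-fold (SE 0.18, FDR 0.000659) and Abhd5 2.18-fold (SE 0.20, FDR 0.00221), with the SE on the log2 scale. Pnpla2 (1.87-fold, FDR 0.00178), Cidec (1.82-fold, FDR 0.0107) and Lipe (1.71-fold, FDR 0.0102) were lower too. For these 7 genes all 5 WD libraries lay below all 5 controls, as for 3.80% of all genes tested, while no member lay above them, as 4.99% of all genes did. Mgll (-0.15, SE 0.26), G0s2 (-0.77, SE 0.65) and Cidea (-0.51, SE 0.89) did not pass, and the median of the 10 was -0.885 against 0.00 for all genes. In the same libraries the summed adipocyte markers had no overlap between groups and were lower in the WD group, and the sum of the 9 macrophage markers was higher. Single adipocyte markers differed. Adipoq, Retn, Cfd and Acvr1c were lower without overlap, and Pparg, Cebpa, Slc7a10 and Pcx overlapped. Lep was higher, with 3227 to 4618 CPM in the WD group and 630 to 2227 CPM in batch 2. The part of these markers in the result was not tested.

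Between control groups of the same diet, batch 2 had the higher estimate for all 10 genes, with a median log2 difference of 1.00 against 0.00 over all genes. None was called by edgeR (0% of all 12106 genes tested, 895 with an unadjusted p under 0.05), and DESeq2 called 221 genes (1.71%) and no member. Plin4 (1.62, SE 0.57), Plin1 (1.47, SE 0.50) and Lipe (1.16, SE 0.47) had an unadjusted p under 0.05. Lipe, Plin1, Plin4 and Cidec were higher in every batch 2 library than in every control of batch 1, as were 4.13% of all genes. For Cidec the margin was narrow (4910 against 4897 CPM). For Abhd5 the difference between the control groups was 0.28 (SE 0.43), and -0.05 (SE 0.21) without control 1. The batch 1 and batch 2 contrasts share the WD libraries, so their values stand side by side and are not independent.

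**Figure D3:**
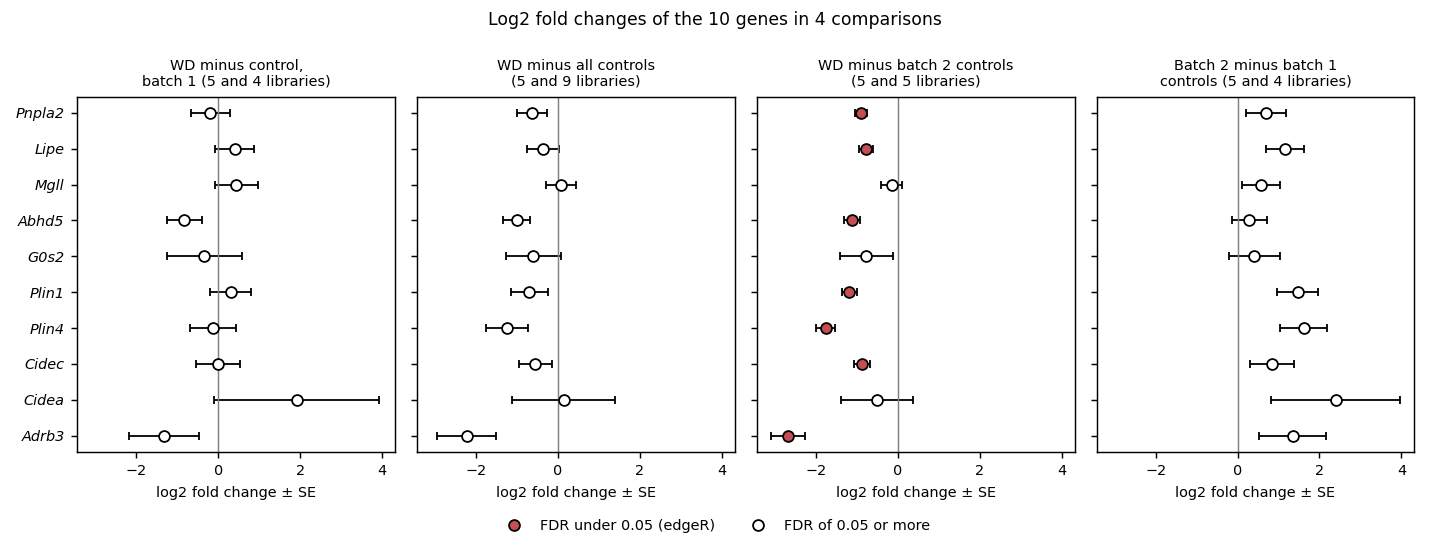
Log2 fold changes with SE of the 10 genes in the 4 comparisons; red points have an edgeR FDR under 0.05. Only the panel of WD minus batch 2 controls holds red points, 7 of 10, and in the panel of batch 2 minus batch 1 controls all 10 points lie above 0.

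Most members are made chiefly by fat cells, so each was also divided by the summed CPM of the 9 adipocyte markers of its library. On that scale (log2 ratio) the order of the groups changed. Lipe averaged -3.61 ± 0.21 in the WD group, -4.17 ± 0.30 in batch 1 controls and -4.21 ± 0.40 in batch 2, and Mgll averaged -2.845 ± 0.51, -3.31 ± 0.36 and -3.98 ± 0.09 in the same groups (SD, n = 5, 4 and 5). Relative to the markers, Lipe was thus 0.58 higher in the WD group than in all controls (exact permutation p = 0.00599) and Mgll 0.84 higher (p = 0.00849). Plin1 (0.34, exact permutation p = 0.0579), Cidec (0.35, p = 0.0614) and Pnpla2 (0.26, p = 0.140) turned from a lower to a higher estimate without passing. Inside batch 1, Lipe (0.56, exact permutation p = 0.0317) and Plin1 (0.545, p = 0.0238) were higher and Abhd5 lower (-0.70, p = 0.0476) on this scale, while Mgll stood at 0.46 (p = 0.175). All 5 batch 2 controls lay below both groups of batch 1 for Mgll, so its difference from all controls mixes diet with batch. Without controls 1 and 4 these batch 1 differences were 0.64 for Lipe (exact permutation p = 0.0476, the smallest that 21 splits can give), 0.62 for Mgll (p = 0.286), 0.40 for Plin1 (p = 0.143) and -0.40 for Abhd5 (p = 0.238).

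Adrb3 kept its lower estimate relative to the markers, at -1.10 against all controls (exact permutation p = 0.121) and -1.63 without controls 1 and 4 (p = 0.00253). Control 4, left out here after the data were seen, held the lowest Adrb3 ratio of all libraries (-9.34). Most controls that remain are of batch 2, so diet and batch are mixed. Inside batch 1 the Adrb3 difference was -0.53 (exact permutation p = 0.532), and -1.80 without controls 1 and 4 (p = 0.0952). Abhd5 stood at -7.06 ± 0.40 in the WD group, between -6.36 ± 0.50 in batch 1 controls and -7.34 ± 0.38 in batch 2, and its difference from all controls was -0.15 (exact permutation p = 0.644). The choice of markers bears on these ratios, since Lep was higher in the WD group (3227 to 4618 CPM) than in any control (at most 2638 CPM) while Cfd was at 772 to 2089 CPM in the WD group and 8311 to 17320 CPM in batch 2. Against Adipoq alone, Lipe (0.57, exact permutation p = 0.00250), Mgll (0.83, p = 0.0120) and Plin1 (0.33, p = 0.0415) were higher than in all controls. A ratio shows unequal change of numerator and markers, not which of them moved, and these p-values are unadjusted.

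**Figure D4:**
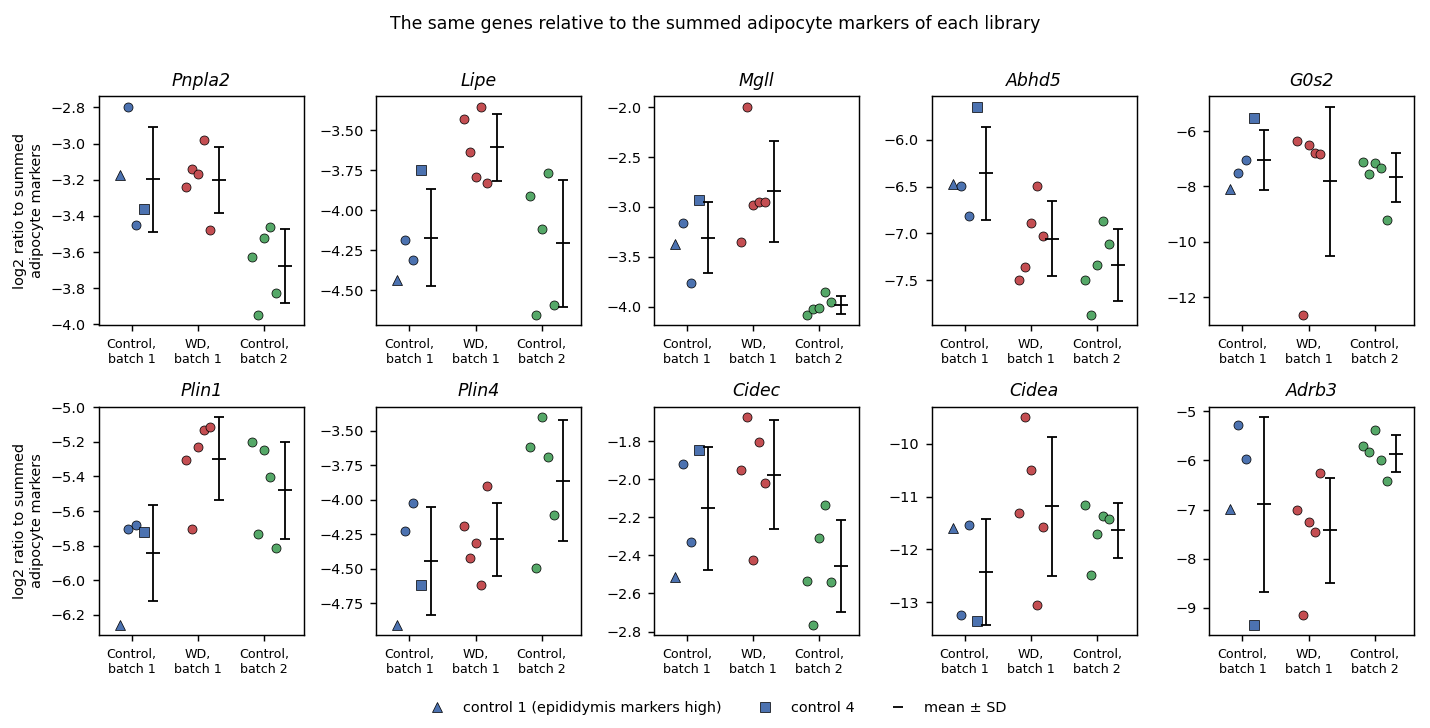
Each gene divided by the summed adipocyte markers of the same library, log2 ratio, by diet and batch; symbols as in the plot of levels, bars are mean ± SD. Lipe and Mgll of the WD group lie high, Mgll of batch 2 lies below both groups of batch 1, and Abhd5 is highest in control 4.

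The genes around this pathway were read from 4 lists. Of 20 genes of beta-adrenergic and cAMP signalling, 18 were tested against all controls and none was called (nor was any gene of the 4 lists inside batch 1), with a median log2 fold change of -0.20. Against batch 2, Tshr, the thyrotropin receptor that also raises cAMP, was the only gene of the list called (-1.08, SE 0.23, edgeR FDR 0.00658), with 39.3 to 87.7 CPM in the WD group, 101 to 156 CPM in batch 2 and 4.86 to 78.5 CPM in the batch 1 controls. Over all genes 6.40% were called against batch 2. Inside batch 1 the Tshr estimate was 0.26 (SE 0.58), and batch 2 controls exceeded batch 1 controls by 1.33 (SE 0.57), neither of which passed. Prkar2b, the main regulatory subunit of protein kinase A in fat, was at 1425 ± 263 CPM in the WD group, 2093 ± 204 CPM in batch 2 and 1162 ± 651 CPM in batch 1 controls and did not pass (-0.57, FDR 0.0738). Npr3, which clears natriuretic peptides, had an estimate of 0.48 (SE 0.30) against all controls, and Adcy3, an adenylate cyclase, 1.20 (SE 0.60, FDR 0.694). Prkar1a stood at -0.42 (SE 0.26).

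Antilipolytic signalling, which runs from the insulin receptor to the phosphodiesterase that degrades cAMP, had 6 of 19 tested genes lower and none higher against batch 2, where 2.48% of all genes were lower and 3.93% higher, and none called against all controls, where 0.530% of all genes were. Of the 6, Akt2, named after its value was seen, had the opposite sign inside batch 1 (0.39, SE 0.42), and none of the 6 was called there. Insr fell short of the threshold against all controls (-1.03, SE 0.24, edgeR FDR 0.0636) and was lower than in batch 2 (-1.085, SE 0.23, FDR 0.00744), with 46.9 ± 10.5 CPM in the WD group, 90.8 ± 25.3 in batch 1 controls and 98.8 ± 21.4 CPM in batch 2. Insr was close to equal in the control groups (0.11, SE 0.27). Pde3b, that phosphodiesterase, was lower than in batch 2 (-1.095, SE 0.22, FDR 0.00503), as was Gnai1, an inhibitory G protein subunit (-1.03, SE 0.24, FDR 0.0161). Gnai2, another subunit of that kind, had an estimate of 0.45 (SE 0.18, FDR 0.179). The list's median against batch 2 was -0.74.

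Other lipid droplet proteins moved in both directions. Plin2, the perilipin found on droplets of most cell types, macrophages included, was the only gene of the 4 lists called against all controls (1.57, SE 0.31, edgeR FDR 0.0240). Its sign there was opposite to Plin1 (-0.71, SE 0.45) and Plin4 (-1.25, SE 0.52), neither of which was called. Inside batch 1, Plin2 stood at 1.46 (SE 0.47, edgeR FDR 0.557), Plin1 at 0.30 (SE 0.49) and Plin4 at -0.13 (SE 0.55), and none passed. Plin2 reached 853 to 2235 CPM in the WD group, 148 to 715 CPM in batch 1 controls and 300 to 561 CPM in batch 2. The WD group thus lay above all controls, as for 1.13% of all genes tested. The summed macrophage markers were also higher in the WD group than in 8 of the 9 controls, and their part was not tested. Against batch 2, 4 of 19 tested genes were called, where 2.48% of all genes were lower and 3.93% higher. Plin2 (1.69, edgeR FDR 0.000611) and Hilpda (1.20, SE 0.29, FDR 0.0189) were higher. Ces1d (-2.97, SE 0.41, edgeR FDR 0.000294) and Ces1f (-2.74, SE 0.40, FDR 0.000490) were lower. Of these, Hilpda is named after its value was seen. Hilpda had the opposite sign inside batch 1 (-0.52, SE 0.51), and batch 2 controls stood at -1.73 (SE 0.53) against batch 1 controls. Inside batch 1, Ces1d stood at -1.13 (SE 0.74) and Ces1f at -1.05 (SE 0.82). Batch 2 controls exceeded batch 1 controls by 1.82 (SE 0.74) for Ces1d and 1.67 (SE 0.64) for Ces1f, and none of these passed. The carboxylesterases Ces1d and Ces1f hydrolyse triglyceride and are near copies, and since multiple alignments were counted their values may share reads. Plin5 (0.61, SE 0.36), Cav1 (-0.07, SE 0.42) and Ptrf, a caveolar coat protein (0.59, SE 0.35), did not pass against all controls.

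Fatty acid and glycerol release had 7 of 8 genes tested. Against batch 2, Pck1, which feeds re-esterification (-1.52, SE 0.42, edgeR FDR 0.0400), and the acyl-CoA synthetase Acsl1 (-0.86, SE 0.19, FDR 0.00945) were lower and Fabp5 was higher (0.72, SE 0.19, FDR 0.0349). Over all genes 2.48% were lower and 3.93% higher in that comparison. None of the list was called in batch 1 or against all controls. Fabp4, the main fatty acid carrier of fat cells, was at 16661 ± 6286 CPM in the WD group and 20626 ± 2648 CPM in batch 2 (-0.32, SE 0.25), and Cd36, which takes up fatty acids, was at 3082 ± 321 and 2811 ± 255 CPM (0.12, SE 0.16). Gyk, glycerol kinase, stood at -1.75 (SE 0.83) inside batch 1 and at 0.27 (SE 0.56) against batch 2, and batch 2 controls stood at -2.03 (SE 0.74) against batch 1 controls, none of which passed.

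**Figure D5:**
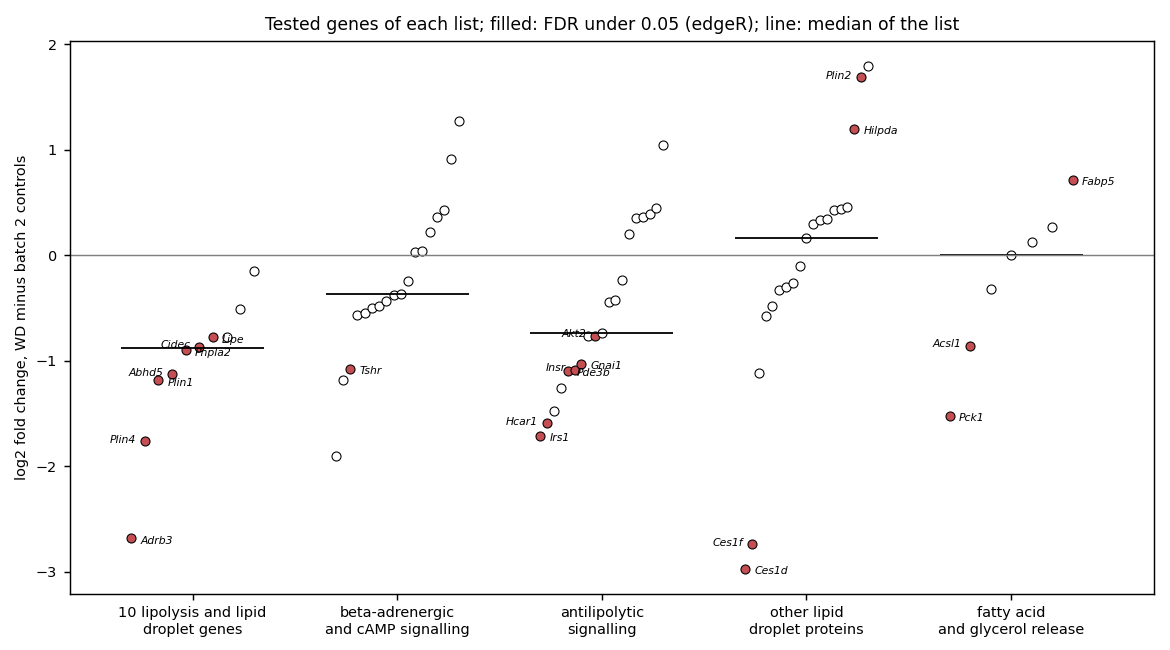
Log2 fold change (WD minus batch 2 controls) of every tested gene of the 10 lipolysis and lipid droplet genes and of the 4 lists, 1 point per gene; filled points have an edgeR FDR under 0.05 and carry their symbol, and lines are medians. The 10 genes have a median of -0.885, Plin2 and Hilpda lie high, and Ces1d and Ces1f lie lowest.

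The members moved together across libraries to different degrees. Over the 14 libraries, which share tissue and differ in the level of the adipocyte markers, Pearson's r of log2(CPM + 1) was 0.97 between Plin1 and Plin4 and stayed at 0.96 without control 1. Plin1 and Adrb3 gave 0.80 and 0.90, and Pnpla2 and Cidec 0.96 and 0.90. Mgll and Plin1 fell from 0.78 to 0.27 without control 1, and Mgll and G0s2 from 0.08 to -0.65. These values are descriptions over libraries of 3 groups.

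The genes whose pattern lay closest to the mean z-score of the 10 members, among 7970 genes with a mean of at least 10 CPM, were Tshr (r = 0.98), Adipoq (0.97), Gsn (0.965), Rbp4 (0.96) and Chst1 (0.96). Without control 1 their r was between 0.88 (Chst1) and 0.95 (Tshr), and without the libraries farthest from the median, control 1 and WD replicate 4, between 0.85 and 0.93. Adipoq, the adipocyte hormone adiponectin, was at 3544 to 5952 CPM in the WD group, 6011 to 7391 CPM in controls 2 to 4 and 11272 to 16663 CPM in batch 2.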

How the data were processed

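RNA of mouse eWAT was sequenced by QuantSeq in 14 libraries. The authors aligned reads with Bowtie2 to mm10, counted them with bedtools, multiple alignments included, and normalised by TMM in edgeR (tools per the submitters' processing notes and the methods). The deposited table holds raw counts per gene and the authors' log2 values, and the counts were used for all tests. The deposited log2 values differed by at most 0.0507 from log2(CPM + 1) computed here.

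Counts were fitted over all genes with edgeR 4.0.16 (quasi-likelihood test, TMM, filterByExpr, Benjamini-Hochberg FDR threshold 0.05) in R 4.3.3, without covariates. Single genes were also compared by exact two-sided permutation of log2(CPM + 1) with scipy 1.17.1. The code was tested on simulated counts with 200 changed genes per run. In the batch 1 design it recovered 0 of them at a log2 change of 1, 18 at 2 and 105 at 3. Against all controls it recovered 3, 113 and 165. The absence of a call in batch 1 therefore does not show the absence of a change. Named genes were the 10 members, per pathway list up to 4 with the lowest FDR against all controls and the 2 with the highest mean, and the 5 most similar genes. Members and lists were chosen with earlier results of these data known. Alternatives were DESeq2 1.42.0, its size factors, other filters and pseudocounts, a batch term, a replicate block and leaving out libraries. The permutations and ratios without controls 1 and 4, and the ratio to Adipoq, were added after seeing the data. Totals of 10278970 to 13712254 make 3 counts equal 0.219 to 0.292 CPM before TMM correction. The TMM factors ran from 0.770 in control 1 to 1.117 in control 4, so these limits are not on the scale of the other CPM values. Without molecular identifiers, such limits cover counting error only. The labels number the libraries without naming the animals, so p-values measure only the spread between these libraries, which may be technical.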

Additional observations from a re-analysis of the deposited data

Results flagged for a closer look

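Libraries far from the rest of their group on log2(CPM + 1) were found 4 times in 30 tests of a gene in a group, where chance gives about 1 in 20, or 1.5. Control 1, the library with epididymis RNA, stood at 7.16 for Lipe, against 9.61 to 9.995 in the other batch 1 controls, and at 5.12 for Abhd5, against 7.47 to 7.71. G0s2, the inhibitor of Pnpla2, stood at 1.05 in WD replicate 2, against 6.25 to 7.32 in the other WD libraries. G0s2 in control 9 stood at 5.91, against 7.27 to 7.70 in the other batch 2 controls.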

How the results depend on the processing

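The 7 members called lower against batch 2 were called under each alternative run. DESeq2 called 238 genes in batch 1, 293 against all controls (1 member), 1280 against batch 2 and 221 between controls. Without controls 1 and 4, 108 genes were called in batch 1 and 619 against all controls (6 members). The fit of all 14 libraries with a batch term called 1 gene for diet. A replicate block called 41 genes in batch 1. The numbers are shared but pair nothing in the labels: same-numbered libraries correlated at 0.038, 0.035, 0.082 and 0.107, and numbers 2 and 4 alone matched best.

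Leaving out 1 library at a time gave 0 to 48 genes called in batch 1, 28 to 289 against all controls (0 to 1 member), 565 to 977 against batch 2 and 0 to 2 between controls. Such log2 folds in batch 1 ran from -0.52 to 0.247 (Pnpla2), -0.727 to 0.114 (G0s2), -0.054 to 0.585 (Plin1), -0.486 to 0.286 (Plin4) and -0.358 to 0.285 (Cidec). Against all controls they ran from -0.266 to 0.201 (Mgll) and -0.667 to 0.46 (Cidea), and between controls from -0.053 to 0.468 (Abhd5). Permutation differences ran in batch 1 from -0.421 to 0.564 (Pnpla2), -1.539 to 0.552 (G0s2), -0.017 to 1.07 (Plin1), -0.419 to 0.77 (Plin4), -0.366 to 0.692 (Cidec) and -1.184 to 0.446 (Adrb3). Against all controls they ran from -0.463 to 0.003 (Lipe), -0.141 to 0.29 (Mgll), -1.529 to 0.044 (G0s2) and -0.35 to 0.698 (Cidea).

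Signs turned in batch 1 under the replicate block for Pnpla2 (0.108), Plin4 (0.016) and Cidec (0.182), and without controls 1 and 4 for Lipe (-0.058), Mgll (-0.001) and Plin1 (-0.297). Without these 2 controls Mgll (-0.114) and Cidea (-0.224) turned against all controls. Permutation differences without them turned in batch 1 for Pnpla2 (-0.792), Lipe (-0.073), Mgll (-0.097), Plin1 (-0.317), Plin4 (-0.873) and Cidec (-0.564), and against all controls for Mgll (-0.195) and Cidea (-0.519). Divided by the adipocyte markers, Pnpla2 turned in batch 1 (-0.005), as it did by Adipoq (-0.053), and against all controls Pnpla2 (0.262), Lipe (0.584), Plin1 (0.344) and Cidec (0.346) turned. By Adipoq these were 0.252, 0.574, 0.334 and 0.337. The marker ratio without controls 1 and 4 gave -0.078 (Pnpla2) and -0.159 (Plin4) in batch 1, and 0.318 (Pnpla2), 0.612 (Lipe), 0.087 (Abhd5), 0.245 (Plin1) and 0.387 (Cidec) against all controls. The causes were not tested. Cidea had 0 counts in 3 libraries, none of them the shallowest, where 3 counts are at most 0.249 CPM before TMM correction.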
